A study of Larimichthys polyactis and Larimichthys crocea with 36 samples.

Results

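The brain of large yellow croaker (Larimichthys crocea, LC) was compared with that of small yellow croaker (Larimichthys polyactis, LP), 3 libraries against 3. Members were the gene identifiers (IDs) that reached an FPKM of 1 in 3 or more of these 6 libraries, which left 16425 of the 24212 IDs in the table. FPKM counts sequenced fragments per length of the gene and per size of the library. The series also holds liver and muscle of both species and brain, liver and muscle of their reciprocal hybrids, named LPC and LCP; each group has 3 libraries. The labels give no age, sex, size or rearing of the fish and no brain region, and they do not say which species was the mother of LPC or LCP. Whether the 3 libraries of a species came from separate fish is not stated, so each p-value is set against library spread, which may be technical.

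Both croakers are closely related marine fish of the drum family, in which sound made with the swim bladder is known. A brain library is a mixture of neurons, glia, vessel and blood cells, and where the gland was taken along, pituitary. In such bulk samples, fewer cells of a type and less RNA per cell cannot be told apart. The table pairs no ID with a gene name, so no function or cell type is assigned here and no marker gene of brain could be checked. IDs that start with evm are gene models, most of them with a chromosome number in the name. IDs that start with BGI_novel (BGI IDs below) form a separate class of the same table. Of the members, 15097 were EVM IDs with a chromosome number, 44 were EVM IDs without one and 1284 were BGI.

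The parental brain libraries stood apart from libraries labelled liver and muscle, and no marker gene tied a label to a tissue. The 6 parental brain libraries correlated with liver libraries of both species at Spearman coefficients of 0.292 to 0.413 across members, and with muscle libraries at 0.36 to 0.484, against 0.744 to 0.962 among themselves. IDs enriched in hybrid brain at least 5-fold over hybrid liver and muscle, a set that no parental library helped to define, held 41.8% to 46.5% of the FPKM sum of each parental brain library. Liver-enriched IDs held 0.345% to 1.27% and muscle-enriched IDs 0.426% to 0.72%, while in their own tissue they held 53.6% to 65.3% and 72.7% to 81.4%. LP 2 had the highest share of both, 1.27% and 0.72%. The part of that RNA in the results was not tested, and calls without LP 2 are given below.

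Brain libraries of 1 species were not always closest to each other. LC 1 correlated with LP 3 at 0.885 and with LP 1 at 0.881, above its 0.857 with LC 2. LP 2 correlated with LC 3 at 0.86, above its 0.842 with LP 1 and 0.841 with LP 3. LP 1 and LP 3 were the most alike pair, at 0.962. The 9 pairs between species ran from 0.744 to 0.885 with a median of 0.834, the 3 pairs within LC from 0.857 to 0.934 and the 3 within LP from 0.841 to 0.962. The first principal component held 50.2% of the variance, and along it LP 2 (14.7) lay between LC 1 (5.2) and LC 3 (43.8). The second held 27.6% and set LP 2 (-84.3) against LC 1 (55.2).

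**Figure D1:**
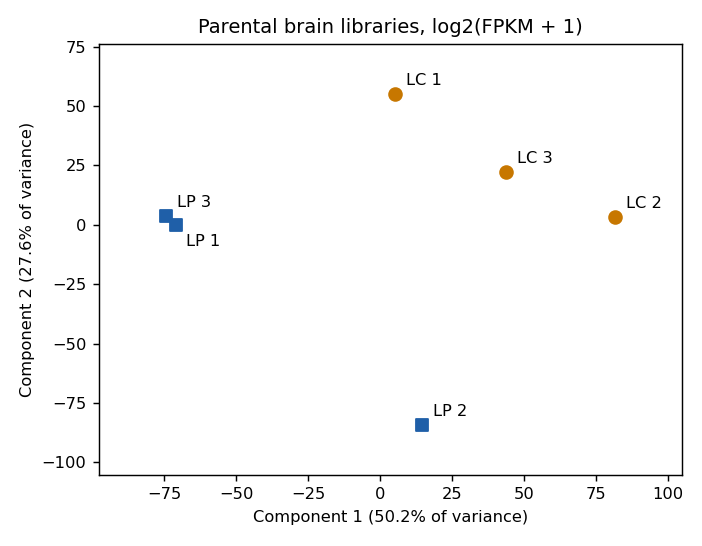
The 6 parental brain libraries on the first and second principal components of log2(FPKM + 1) over the 16425 members; circles are LC, squares are LP, and each label gives the replicate number. LP 1 and LP 3 lie together at the left, and LP 2 lies far below them, within the range of LC along the horizontal axis.

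LC and LP brain did not differ in how many IDs were detected beyond the spread between libraries. IDs at an FPKM of at least 1 numbered 15429, 16484 and 16155 in LC 1 to 3, and 15358, 17149 and 15184 in LP 1 to 3. LP 2 had the most and LP 3 the fewest, with all LC libraries between them (exact 2-sided permutation p = 0.8; 3 against 3 cannot go below 0.1). The 10 most abundant IDs made up 5.38% ± 0.885 of the LC sum and 5.33% ± 0.404 of the LP sum (SD, n = 3; exact permutation p = 1). Brain-enriched IDs made up 44.2% ± 2.07 of the LC sum and 44.4% ± 2.19 of the LP sum (SD, n = 3; exact permutation p = 0.9).

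None of the 5 most abundant brain IDs was called different between the species. The highest, evm.model.Chr21.835, had 3568, 4511 and 3939 FPKM in the LC libraries and 4451, 4525 and 4401 in the LP libraries. The groups overlapped, and the difference was within the spread (log2 difference -0.16, SE 0.24, limma adjusted p = 0.757). Parental liver held it too, LC at 2414 ± 603 and LP at 1838 ± 170 (SD, n = 3). The next ID, evm.model.Chr18.38, had 3048 ± 747 in LC brain and 3410 ± 190 in LP brain (SD, n = 3 each; limma adjusted p = 0.77). evm.model.Chr18.456 was the most variable of the 5 highest: LC libraries had 1541, 5272 and 4550 FPKM, and LP libraries 2335, 1783 and 976. LC 1 lay among the LP libraries (limma adjusted p = 0.571). No liver or muscle library had more than 1.01 FPKM of this ID, and it reached 19677 in LCP brain 2. evm.model.Chr17.907, with at most 1.41 FPKM in liver and muscle, was at 2163 ± 235 in LC brain and 2808 ± 599 in LP brain (SD, n = 3 each; limma adjusted p = 0.493). evm.model.Chr11.774, the other of the 5, had 2904 ± 1094 and 2504 ± 551 (SD, n = 3 each; limma adjusted p = 0.817).

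Between the species, 295 members were higher and 311 lower in LC brain (limma on log2(FPKM + 1), adjusted p under 0.05), which is 1.8% and 1.89% of the members. Together these are 606 members, or 3.69%, against 3.42% of all 17931 IDs tested in brain. Without adjustment, 3181 members had a p under 0.05. The median log2 difference was -0.10 over all members. In simple order, all 3 LC libraries lay above all 3 LP libraries for 1516 members (9.23%) and below them for 3031 (18.5%). The excess on the lower side came with that shift of the median. After scaling the libraries by median ratios, which brought the median to -0.02, the numbers were 2108 and 2130, and 363 members were called higher and 244 lower. LC was higher in 48.7% of the calls as deposited and in 59.8% after scaling, so the majority changed with the scale. Under both scales, 291 members were called higher and 238 lower. The majority also changed without rescaling. With no filter, 314 were higher and 286 lower, and leaving out any 1 library put higher calls ahead (295 against 213 without LP 2). Lower calls stayed ahead with a pseudocount of 0.1 (323 against 317) and with library number as a block (343 against 320).

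**Figure D2:**
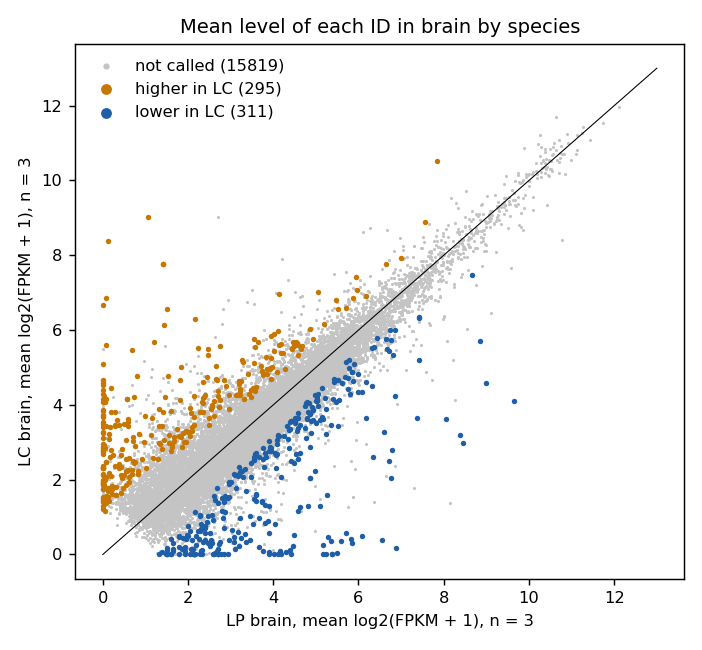
Mean log2(FPKM + 1) of each of the 16425 members in LC brain (vertical) against LP brain (horizontal), n = 3 libraries each; the line marks equal means. The 295 members called higher and 311 called lower in LC lie away from the line, many of them along an axis where 1 species is at or near 0, while 15819 members were not called.

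The number of calls fell when any 1 library was left out, which also makes its group smaller. The part of group size in these falls was not tested. Without LP 1 the calls fell to 257, without LP 3 to 268, without LC 3 to 275, without LC 2 to 306 and without LC 1 to 349. Without LP 2, the library farthest from its group, 508 were called, of which 389 were among the 606. These counts include IDs that were not called with all libraries. The number of the 606 that stayed called ran from 249 without LP 1 to those 389. Of the 606, 213 (125 higher and 88 lower, 111 of them BGI) stayed called without each of the 6 in turn. When only the 6 parental libraries were fitted, without the hybrids' part in the estimate of the spread, 388 were called, 223 higher and 165 lower.

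Only differences large against the library spread could be called, so the sizes of those called depend on the threshold. The median size of the called differences was 1.64 on the log2(FPKM + 1) scale, or 3.12-fold, and the smallest was 0.57. At least a 2-fold difference was seen in 532, at least 4-fold in 228 (114 in each direction) and at least 16-fold in 54. Between libraries of 1 species, 25.6% of members in LC and 28.1% in LP spanned more than 2-fold, and the median size of the species difference over all members was 0.387. A mean FPKM of at least 1 in both species was held by 344 of the calls, and 217 (89 higher and 128 lower) had a mean FPKM of at least 5 in both species. These were 2.1% of the 10344 members at such levels, with a median size of 1.14. By mean level, the share called was 10.2% under an FPKM of 1, 4.35% at 1 to 5, 3.32% at 5 to 20, 3.51% at 20 to 100 and 2.31% at 100 or more. The filter bears on the counts at every level: 235 members passed it through LC alone and 232 through LP alone, so they had to differ in level, and 220 of them were called.

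Calls were unevenly spread over the kinds of ID, and no test was made between kinds. Of the 1284 BGI members, 114 were higher and 113 lower in LC, or 17.7%, against 174 and 196 of the 15097 EVM members with a chromosome number, or 2.45%. Of the 44 EVM members without a chromosome number, 7 were higher and 2 lower. The median size of the difference over all members of each kind was 0.81 for BGI IDs and 0.37 for EVM IDs with a chromosome number, and the median SD within a species was 0.49 and 0.35. BGI IDs had the higher share called in every bin of level, and the gap varied. At an FPKM of 100 or more, 11 of 41 BGI and 8 of 782 EVM members were called. Under an FPKM of 1, the counts were 12 of 49 and 7 of 137. At an FPKM of 1 to 5 the counts were 110 of 719 and 92 of 3979. Members that passed the filter through 1 species alone, and so had to differ, are in these counts and were not split by kind. Leaving out any 1 library gave 133 to 182 BGI calls and 122 to 319 calls of EVM IDs with a chromosome number. Of the BGI IDs called with all libraries, 129 (without LC 3) to 169 (without LP 2) stayed called.

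**Figure D3:**
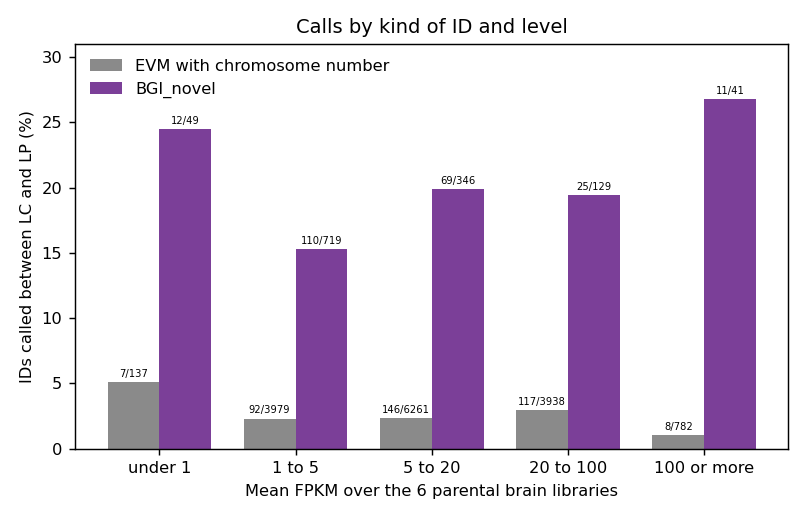
Percent of members called between LC and LP brain, by mean FPKM over the 6 libraries, for EVM IDs with a chromosome number (grey) and BGI IDs (purple); numbers above the bars are members called over members in the bin. BGI IDs lie between 15.3% and 26.8% in every bin and EVM IDs between 1.02% and 5.11%.

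Called BGI IDs often had consecutive places in the numbering. Of the 113 BGI IDs lower in LC, 47 (41.6%) had a lower call at the next or previous member number, against 11.6% of BGI members that were not called. For the 114 higher, it was 38 (33.3%) against 13.8%. Among EVM IDs ordered by their number on a chromosome, 12 of 174 higher calls (6.90%) and 6 of 196 lower calls (3.06%) had such a neighbour, against 2.17% and 2.55% of those not called. Whether neighbouring numbers are neighbours in the genome is not stated. Some members repeat each other: 32 IDs in 15 sets had the same FPKM in all 36 libraries, and counting each set once leaves 600 calls. The neighbour counts above include such repeats, and some called repeats have consecutive BGI numbers. By the chromosome in the name, the share called ran from 0.99% (6 of 606) on chromosome 20 to 4.59% (17 of 370) on chromosome 24, where 11 were higher and 6 lower.

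Enrichment in brain was compared with the calls as counts. Of 5264 brain-enriched members, 62 were higher and 34 lower in LC, or 1.82%, with a median difference of -0.05. Of 352 broadly expressed members, within 2-fold across hybrid brain, liver and muscle, 6 were higher and 9 lower (4.26%). Liver-enriched IDs gave 8 higher and 4 lower of 225 members, and muscle-enriched IDs 2 and 5 of 206. Members in none of these classes gave 217 higher and 259 lower of 10378 (4.59%). Among EVM IDs with a chromosome number alone, 66 of 5020 brain-enriched members were called (1.31%). Of EVM IDs with a chromosome number in none of the classes, 282 of 9331 were called (3.02%). No test was made between these classes, which were set after the data were seen. The classes needed a mean FPKM of at least 5 in hybrid libraries, so IDs below that could only be in none of them. The share called varied by level, as given above, and the classes were not compared within levels. Hybrid brain libraries helped to set the classes and also entered the estimate of the spread behind the calls.

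Among called members, the largest rise in LC brain was in BGI_novel_G001511. It had 221, 460 and 359 FPKM in the LC libraries, was listed at 0 in LP 1 and LP 2 and had 0.28 in LP 3. This ID passed the filter through LC alone, so it had to differ (log2 difference 8.26, SE 0.74, limma adjusted p = 0.000214), and the fitted size depends on the pseudocount. Both hybrids carried it in brain, LPC at 217 ± 109 and LCP at 232 ± 265 (SD, n = 3). Among called members with a mean FPKM of at least 5 in both species, evm.model.Chr1.1042, on chromosome 1 by its name, rose most. LC libraries had 39.3, 39.7 and 53.5 FPKM, and LP libraries 6.22, 1.82 and 7.32. The groups were well apart, with LP 2 the lowest (log2 difference 3.01, SE 0.35, limma adjusted p = 0.00115). LPC brain held 30.2 ± 5.81 and LCP brain 26.1 ± 1.90 (SD, n = 3), and no liver or muscle library of any cross exceeded an FPKM of 0.56.

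The largest fall among called members was in BGI_novel_G001583. LP libraries had 243, 208 and 30.4 FPKM, while LC 1 and LC 3 were listed at 0 and LC 2 had 0.46. LP 3 was the lowest of its group. The ID passed the filter through LP alone, so it had to differ as well (log2 difference -6.69, SE 1.1, limma adjusted p = 0.0084). LP 3 was also the lowest LP library for this ID in liver (14.6, against 115 and 59.0) and in muscle (8.70, against 82.5 and 111). Among called members with such means in both species, BGI_novel_G000756 fell most, from 900, 778 and 734 FPKM in LP to 300, 1.95 and 4.65 in LC. Here LC 1 stood apart from the other LC libraries (log2 difference -5.55, SE 1.33, limma adjusted p = 0.0495). The LC mean reached an FPKM of 5 through LC 1 alone. LC 1 stood apart in liver as well, at 30.2 against 0 and 0.17, and in muscle, at 5.16 against 0.13 and 0.18. The call of BGI_novel_G000756 was lost in 10 of 12 alternatives, among them leaving out LP 1, LP 2, LP 3, LC 2 or LC 3 (log2 differences between -7.62 and -4.28 over all alternatives, limma adjusted p between 0.000136 and 0.165).

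**Figure D4:**
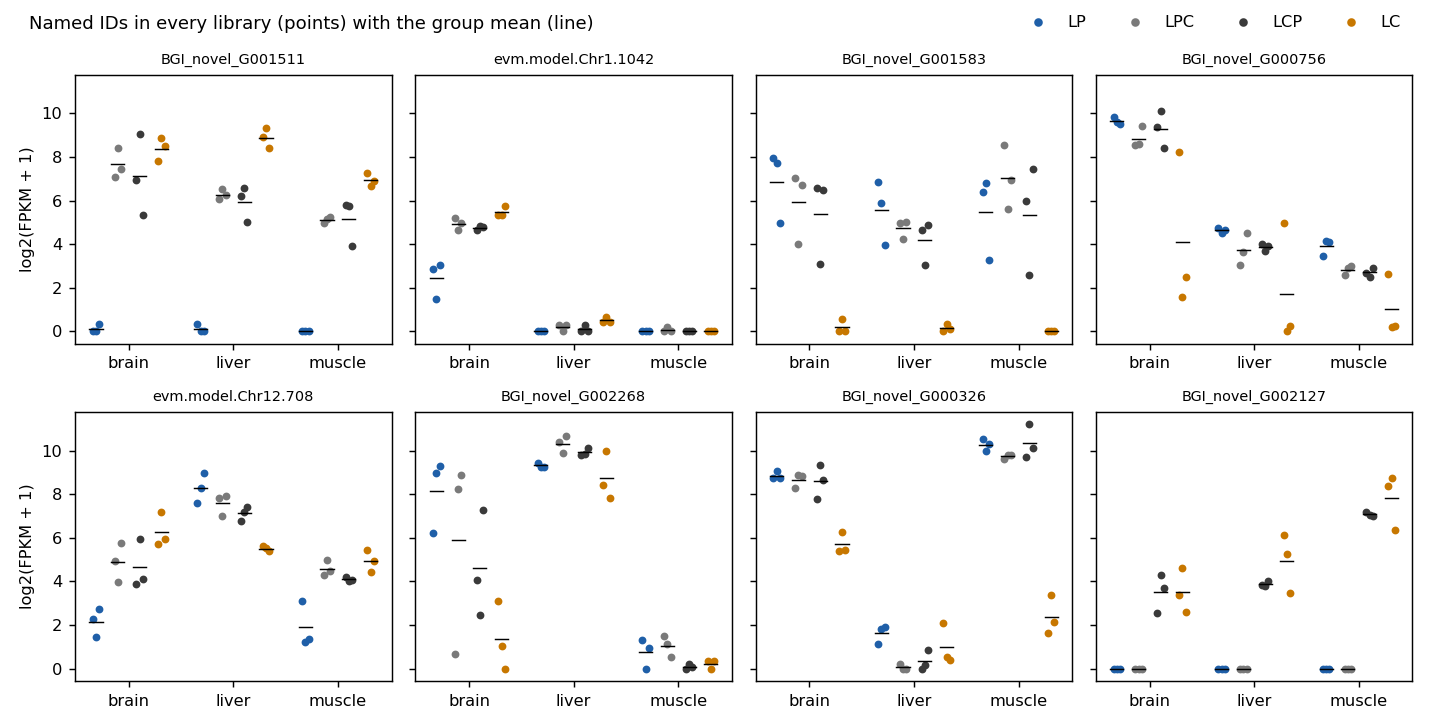
Log2(FPKM + 1) of the 8 named IDs in each library of brain, liver and muscle (points) with group means (lines), for LP, LPC, LCP and LC. The upper panels are the largest rises and falls among called members in brain, and the lower panels are the IDs at the extremes of the fitted difference between brain and liver or brain and muscle.

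Same-numbered libraries departed together across tissues among BGI IDs. For each species, deviations from the group mean over BGI members correlated between same-numbered brain and liver libraries at 0.42 to 0.65 (717 IDs), and between same-numbered brain and muscle libraries at 0.5 to 0.63 (544 IDs). Libraries with other numbers gave -0.45 to -0.14. EVM IDs with a chromosome number gave 0.06 to 0.19 with liver and 0 to 0.14 with muscle for the same number. These are correlations across IDs, which are not independent, and deviations of 3 libraries from their mean are negatively related by construction. The labels do not say that a number marks 1 fish.

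In 99 of the 16425 members, 1 species was at an FPKM of at least 1 in all its brain libraries and the other was listed at 0 in all of its own. LC was the species present for 59 of them (33 BGI and 26 EVM) and LP for 40 (27 BGI and 13 EVM). Their levels were mostly low, with a median FPKM of 5.97 for those in LC and 5.02 for those in LP, and a highest mean of 101 and 43.9. They passed the filter through 1 species alone, so they had to differ in level, and 77 of them were among the 606 calls. In the other 2 tissues as well as brain, LP was listed at 0 in all 9 of its libraries for 33 of the 59, and LC for 17 of the 40. In each of these tissues, most did not reach an FPKM of 1 in all libraries of the species that held them in brain. Of the 59, 16 reached an FPKM of 1 in all LC liver libraries and 6 in all LC muscle libraries. LP was at 0 in that tissue for 7 and 3 of these. Of the 40, 15 did so in LP liver and 13 in LP muscle, with LC at 0 for 9 and 7. In hybrid brain, 21 of the 59 reached an FPKM of at least 1 in all 6 libraries, 36 in some and 2 in none. Of the 40, this was 5, 27 and 8.

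A pair of IDs found in LC brain followed 1 hybrid only. BGI_novel_G002127 had 9.28, 23.4 and 5.14 FPKM in LC brain and 4.91, 18.6 and 11.8 in LCP brain, and was listed at 0 in all LP and all LPC brain libraries. The same held in liver, at 38.5 ± 29.1 in LC and 13.9 ± 1.34 in LCP, and in muscle, at 279 ± 177 in LC and 135 ± 9.76 in LCP (SD, n = 3 each), with LP and LPC listed at 0 in every library. evm.model.Chr13.62 had 6.98, 2.22 and 9.37 FPKM in LC brain and 4.63, 1.75 and 6.73 in LCP brain, and 0 in all LP and LPC libraries of the 3 tissues. In LC and LCP liver and muscle it was at an FPKM of 1.49 or less. It was singled out after its values were seen. No ID had the mirror pattern in brain (present in LC and LPC, or in LP and 1 hybrid, and at 0 in the other 2 crosses). In liver, 1 ID was present in LC and LPC and at 0 in the other crosses, and 1 had the LC and LCP pattern. In muscle these counts were 0 and 1. The depth is unknown, so a value of 0 does not show absence.

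Members called in brain mostly had the same sign of difference in liver and muscle, and part of them were called there too. Of the 414 brain-called IDs that were tested in liver, 200 (48.3%, exact 95% interval 43.4% to 53.2%, counting error only) were called in the same direction there and 10 in the opposite one, with 204 not called. Of the 185 higher in LC brain, 107 were higher in LC liver, where 8.07% of all IDs tested were higher. Of the 229 lower in brain, 93 were lower in liver, where 7.52% of all were lower. In sign alone, 363 of the 414 (87.7%) matched. Muscle carried a shift of its own, with a median log2 difference of -0.64 over all IDs tested, 3.05% called higher and 48.5% called lower in LC. There 53 of 146 IDs higher in brain were higher and 12 lower, and 176 of 213 lower in brain were lower and 0 higher. After median-ratio scaling of muscle, 85 of the 146 were higher and 111 of the 213 lower, against backgrounds of 10% and 11.3%, and 3 were called in the opposite direction. Relative to the muscle median, 319 of 359 (88.9%) matched in sign. For neither tissue was the share of matching signs taken over all IDs tested, so the sign counts have no background.

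**Figure D5:**
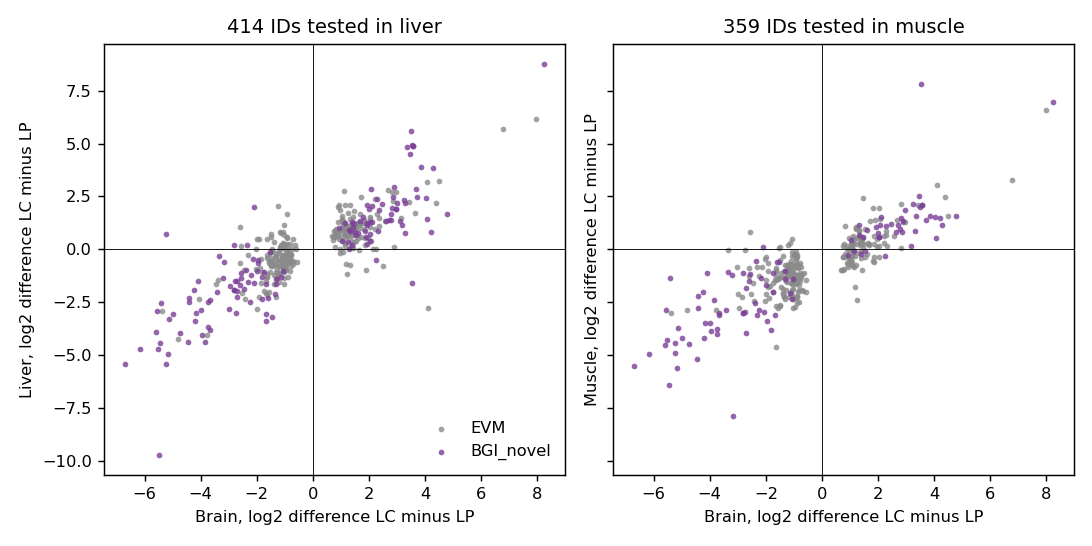
Log2 difference LC minus LP in liver (left, 414 IDs) and muscle (right, 359 IDs) against the same difference in brain, for IDs called in brain and tested in the other tissue; grey points are EVM IDs and purple points BGI IDs. Most points lie in the lower left and upper right of each panel, and BGI IDs reach farther out than EVM IDs.

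By kind of ID, with no test between kinds, the counts were as follows. In liver, 100 of 136 BGI IDs called in brain were called the same way (73.5%) and 2 the opposite way, while 100 of 278 EVM IDs were called the same way (35.97%) and 8 the opposite way. Called over all IDs tested in liver, in either direction, were 33.5% of BGI and 13.6% of EVM IDs. In muscle the same way was called for 81 of 101 BGI IDs (80.2%) and 148 of 258 EVM IDs (57.4%). Called over all IDs tested in muscle, in either direction, were 47.4% of BGI and 51.9% of EVM IDs. Both kinds together had 48.5% called lower and 3.05% higher, so these shares are no background for 1 direction. The scaled muscle counts above were not split by kind. BGI IDs also had larger differences in brain (median size 2.74 against 1.23 among those tested in liver). In all 3 tissues, 332 brain-called IDs were tested, and 108 were called the same way in each, 37 higher and 71 lower in LC as deposited. No share over all IDs tested in the 3 tissues was taken. The lean of muscle to lower calls enters this split. Another 165 brain-called IDs were too low in liver and in muscle to be tested there. Same-numbered libraries departed together across tissues, so the liver and muscle values are other libraries and may not be other fish.

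Whether the species difference itself differed between tissues was tested in 1 fit. Between brain and liver, 395 of 10852 members (3.64%) had a species difference that was not the same, 151 with a higher LC minus LP value in brain and 244 with a lower one. After median-ratio scaling there were 175 and 156, and with quantile normalization 141 and 167. Between brain and muscle, 1679 of 9844 members (17.1%) were called, 1605 with a higher value in brain and 74 with a lower one. That imbalance came with the shift of muscle: the median of this difference was 0.51, and after median-ratio scaling 298 were higher and 268 lower. Quantile normalization gave 254 and 193.

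Among members called in this test whose species did not overlap in brain and whose mean FPKM was at least 5 in a species of both tissues, the highest value between brain and liver belonged to an ID with opposite directions. evm.model.Chr12.708, on chromosome 12 by its name, had 51.3, 145 and 61.4 FPKM in LC brain and 3.87, 1.76 and 5.69 in LP brain. In liver it had 48.7, 44.9 and 40.6 in LC and 192, 316 and 505 in LP. Neither tissue showed overlap between the species (brain log2 difference 4.12, SE 0.63, limma adjusted p = 0.00558; liver -2.78, SE 0.37, limma adjusted p = 0.00074). The difference between the tissues was 6.90 (SE 0.73, limma adjusted p = 6.63e-07). Muscle had the same direction as brain, LC at 31.4 ± 11.3 and LP at 3.48 ± 3.52 (SD, n = 3). Hybrid levels were 32.6 ± 19.2 and 30.4 ± 26.3 in brain and 199 ± 63.6 and 141 ± 32.2 in liver of LPC and LCP (SD, n = 3 each).

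The lowest value by that rule was that of BGI_novel_G002268. LP brain libraries had 72.8, 500 and 629 FPKM and LC brain libraries 7.56, 1.05 and 0, and the brain difference itself was not called (log2 difference -6.78, SE 2.01, limma adjusted p = 0.101). In liver both species held it, LC at 532.5 ± 427 and LP at 641 ± 52.4 (SD, n = 3). The difference between the tissues was -6.22 (SE 1.81, limma adjusted p = 0.0483), and this call was lost in 9 of 11 alternatives, among them leaving out any 1 library number of either species (limma adjusted p between 0.0466 and 0.193 over all alternatives).

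Against muscle, the highest value by the same rule was that of BGI_novel_G000326, which differed the same way in both tissues. It had 41.4, 75.9 and 42.3 FPKM in LC brain and 435, 536 and 425 in LP brain, and 5.003 ± 3.96 in LC muscle and 1255 ± 225 in LP muscle (SD, n = 3 each). LC was lower in both tissues without overlap, by 8.90-fold in brain and 237-fold in muscle on the log2(FPKM + 1) scale (difference between the tissues 4.74, SE 0.62, limma adjusted p = 1.37e-05). Liver levels were low, LC at 1.35 ± 1.68 and LP at 2.15 ± 0.83 (SD, n = 3). BGI_novel_G002127, described above for its hybrid pattern, had the lowest fitted value (-4.30, SE 0.71, limma adjusted p = 0.000214). LP was listed at 0 in every library of both tissues, so no fold between the species can be given in either, and the value reflects only the level in LC, 12.6 ± 9.57 in brain and 279 ± 177 in muscle (SD, n = 3).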

How the data were processed

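Per the file headers, the authors deposited FPKM per library, with 2 decimals and no counts. The submitters' processing notes name fastp, while the aligner, quantifier, build and gene models are each not given in the sources used here. How reads of each species map to a common reference was not tested. Per the labels' protocols, polyadenylated RNA was selected and primed with random hexamers. The depth is unknown: low values compared with LP 1 did not fall on common steps (5.40% to 18.85% in the fullest bin), so whole fragments were not recovered and no interval for depth is given.

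Members and lists were chosen with earlier results of these data known. Each tissue was fitted on log2(FPKM + 1), a pseudocount of 1, by limma 3.58.1 (R 4.3.3) with a trended prior and all 4 crosses as groups. Tests were 2-sided, with Benjamini-Hochberg adjustment over the IDs that reached an FPKM of 1 in 3 or more of the tissue's 12 libraries. Differences between tissues were tested in 1 fit of all 36 libraries. Fold changes on this scale understate changes of low values. Tissue classes needed a mean FPKM of at least 5 in hybrid libraries and a 5-fold excess over both other tissues. The code was tested on simulated data.

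Named IDs are, in each direction in brain, the largest fold change with a mean FPKM of at least 5 in 1 species and in both, the extremes of each difference between tissues (a mean FPKM of at least 5 in a species of both), all among members called in the test at hand and without overlap in brain, and the 5 highest levels. The table pairs no IDs with symbols, so no list of marker genes was used.

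Libraries of LP and LC with the same number deviated together in brain for numbers 1 and 2 (0.39 and 0.472) and not for 3 (-0.074). Those with other numbers ran from -0.581 (LP 2 with LC 1) to 0.516 (LP 3 with LC 1). Same-numbered libraries were therefore not treated as pairs in the main fit. Within a species, same-numbered brain libraries correlated over all members tested with liver (0.12 to 0.32) and with muscle (0.11 to 0.22). For differences between tissues, a fit with libraries of the same cross and number as a block was therefore an alternative. The alternative for brain alone was a different design. It took the number alone as the block, so brain libraries of all crosses with the same number shared a block.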

Additional observations from a re-analysis of the deposited data

Results flagged for a closer look

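The species difference itself differed between tissues, by the test of that difference, for 395 members between brain and liver and for 1679 between brain and muscle. The named extremes were evm.model.Chr12.708 (6.90, brain minus liver), BGI_novel_G002268 (-6.22, brain minus liver), BGI_novel_G000326 (4.74, brain minus muscle) and BGI_novel_G002127 (-4.30, brain minus muscle), all as differences of log2(FPKM + 1) differences. For BGI_novel_G002127, with LP at 0 in both tissues, the value reflects only the level in LC. evm.model.Chr12.708 kept its sign and its call in all 11 alternatives, with values from 6.46 to 7.32. BGI_novel_G000326 and BGI_novel_G002127 did so as well, between 2.36 and 5.03 and between -7.07 and -3.94. BGI_novel_G002268 stayed between -7.65 and -5.31 in its 11 alternatives and kept its call in 2. Groups of 3 libraries are too small for the rule on single outlying samples, so no library was singled out by it.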

How the results depend on the processing

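The 606 brain calls became 640 with a pseudocount of 0.1, 600 with no filter, 607 with median-ratio scaling, 566 with quantile normalization, 388 from the 6 parental libraries alone, and 257 to 508 without 1 library. With the block of number alone, shared across crosses, 663 were called in brain. With the block of cross and number, 491 were called between brain and liver and 1914 between brain and muscle. In brain, under the block of number alone, BGI_novel_G000756 lost its call. BGI_novel_G001511, evm.model.Chr1.1042 and BGI_novel_G001583 kept theirs, and the brain calls of the other named IDs were not followed there. The 395 IDs that differed between brain and liver became 247 with a pseudocount of 0.1, 1141 with no filter and 205 to 310 without 1 library number. The 1679 between brain and muscle became 566 with median-ratio scaling, 447 with quantile normalization and 925 to 1391 without 1. The share of brain calls made the same way in liver was 39.1% with no filter and 46.4% to 63.2% without 1 library number. In muscle it was 45.1% with no filter, 55.5% with median-ratio scaling, 56.2% with quantile normalization and 56.4% to 66.9% without 1. IDs in 1 species and at 0 in the other numbered 34 when an FPKM of 5 was required. The difference in IDs detected (126 more in LC at an FPKM of 1) was -205 at an FPKM of 5, and -231 to 752 without 1 library, and the difference in the share of the 10 most abundant IDs ran from -0.406 to 0.475 percentage points. The cause of these moves was not tested. The unknown depth limits what a value of 0 shows.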
